A study of Mus musculus with 50 samples.

Results

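Translation factors are the proteins that load the ribosome onto an mRNA, find its start codon and then carry the ribosome along the coding sequence. The genes described here are the 53 whose symbol begins with Eif or Eef and a digit, out of 18193 genes with an unambiguous row in the table. The kinases of the Eif2ak group, the Y-linked copy of Eif2s3 and pseudogenes were left out, and each gene is represented by its brightest probe set. Of the 53 genes, 52 entered the tests, with 12883 genes tested in all. The exception was Eif4a3, whose only usable probe set averaged 5.85 on the log2 scale, below the table's median of 6.44.

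The study measured polysomal RNA, the mRNA recovered from sucrose gradient fractions that hold several ribosomes per message, on 50 Affymetrix mouse arrays. YAMC cells are a line of young adult mouse colon cells from the H-2Kb/tsA58 transgenic mouse, kept growing by a temperature-sensitive SV40 large T under an interferon-inducible promoter, and all groups carry that transgene. The mp53/Ras cells received retroviruses for p53175H and RasV12, the mp53 cells p53175H and the Neo vector, the Ras cells the Bleo vector and RasV12, the bleo/Neo cells both empty vectors, and parental YAMC cells none, with 10 arrays each. Cells of all groups were first grown at 33 °C. Every array came from cells held for 48 h under conditions that switch large T off (39 °C, no interferon) and then 24 h with 0% serum. Each infected population is polyclonal and was derived once, so a difference between populations and a difference between derivations cannot be told apart. The labels number the replicates without saying that they were separate cultures, and the p-values cover only the spread among arrays of a population, which may be technical. A value here is an amount of polysome-associated mRNA relative to all other such mRNA, and a change in the amount of mRNA per cell, in its loading on polysomes, or in the share of cells that carry it cannot be told apart.

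Initiation begins when eIF4E binds the mRNA cap and joins the scaffold eIF4G and the helicase eIF4A, while eIF4E-binding proteins compete with eIF4G for eIF4E. The small ribosomal subunit arrives with eIF3, with eIF1 and eIF1A, which police start codon choice, and with eIF2, which carries the initiator tRNA and is recharged by the exchange factor eIF2B. eIF5 and eIF5B then complete subunit joining, eEF1A delivers aminoacyl-tRNAs during elongation, eEF2 moves the ribosome by a codon, and eIF5A relieves stalls. Both Ras-ERK and mTOR signalling act on this machinery, by phosphorylation of eIF4E and of its binding proteins.

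Upstream sequences are shown for the genes that separated mp53/Ras cells from bleo/Neo cells most cleanly among the cap-binding and elongation genes and that had an entry. They are the 250 bases before an annotated start in the RefSeq promoter table (GRCm38.p6), 5′ to 3′ on the gene's strand, with every match to 3 motifs on either strand in capitals. The first motif is CACGTG, which is its own reverse complement. Another is CCAAT, whose other strand reads ATTGG. The last is GGGCGG, seen from its other strand as CCGCCC. Eif4e is shown at the second of its 2 starts (chr3:138527018-138527267, plus strand), Eif4e2 at the first of 3 (chr1:87213661-87213910, plus strand) and Eef1e1 at its single start (chr13:38659029-38659278, minus strand).
Eif4e: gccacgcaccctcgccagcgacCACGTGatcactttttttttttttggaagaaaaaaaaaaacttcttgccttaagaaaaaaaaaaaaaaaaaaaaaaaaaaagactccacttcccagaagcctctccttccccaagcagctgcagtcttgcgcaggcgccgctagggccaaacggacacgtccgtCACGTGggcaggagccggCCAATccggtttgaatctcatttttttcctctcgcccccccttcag
Eif4e2: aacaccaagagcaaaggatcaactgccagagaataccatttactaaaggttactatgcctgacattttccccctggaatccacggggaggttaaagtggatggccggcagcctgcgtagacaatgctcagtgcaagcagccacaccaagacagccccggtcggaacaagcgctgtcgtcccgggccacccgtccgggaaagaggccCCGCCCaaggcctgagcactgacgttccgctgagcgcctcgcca
Eef1e1: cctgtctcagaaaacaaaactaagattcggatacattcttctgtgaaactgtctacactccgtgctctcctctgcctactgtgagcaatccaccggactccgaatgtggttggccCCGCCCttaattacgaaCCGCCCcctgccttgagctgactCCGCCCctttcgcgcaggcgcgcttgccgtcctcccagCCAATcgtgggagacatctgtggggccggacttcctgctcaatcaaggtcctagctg
The Eif4e window holds CACGTG with its first base at -228 and again at -64, counted back from the start, and CCAAT at -46. Among all 32851 windows of the table, 141 (0.429%) hold CACGTG at least 2 times, and the window at the other Eif4e start holds none of the 3 motifs. The Eif4e2 window holds GGGCGG at -44, and the Eef1e1 window holds it at -135, -118 and -95 with CCAAT at -57. No pair of these motifs overlaps as printed. CACGTG is the E-box form that Myc-Max and related dimers can bind, CCAAT is the box bound by NF-Y, and GGGCGG is the core of the GC box.

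Over the whole family, 42 of the 53 genes had an entry. CACGTG was found for 11 of these 42 genes (26.2%), against 6.86% of all 27025 genes in the promoter table. GGGCGG was found for 31 of the 42 (73.8%), against 35.4% of all genes, and CCAAT for 13 (31%), against 37.5%. These backgrounds were not limited to genes that passed the filter. Whether the shares differ from those of other expressed genes was not tested. The 11 genes with CACGTG were Eef1aknmt, Eef2, Eef2k, Eif1b, Eif3f, Eif3k, Eif4a1, Eif4e, Eif4h, Eif5a and Eif5a2. In mp53/Ras against bleo/Neo, 4 of these 11 rose, 2 fell and 5 did not pass the test, which is about the share of all genes called there (54.6%). A match describes these letters and not an occupied site.

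The cells kept Krt8 and Krt18, keratins of simple epithelium, which averaged 12.94 and 12.67 on the log2 scale in mp53/Ras cells, and 11.75 and 10.54 in YAMC cells. The junction gene Cdh1 and the colon genes Vil1, Cdx1, Cdx2 and Car1 were below the filter, so 4 of 5 epithelial and 1 of 5 differentiated colon markers passed. The mesenchymal genes Col1a1 and Acta2 were bright in all 5 populations (means 12.4 to 13.97), and 4 of 5 fibroblast and smooth muscle markers passed. Of the immune markers Ptprc and Cd79a were below the filter, while 2 of 4 passed, Cd68 (means 8.41 to 9.96) and Cd3e (7.13 to 7.42). Of the endothelial markers Pecam1 and Cdh5 were below it and 1 of 3, Kdr, passed (7.08 to 7.99). Over all tested genes, 46 of the 50 arrays lay nearest the mean of their own group. The exceptions were YAMC 2 and Ras 10, which lay nearer mp53, mp53 8, which lay nearer YAMC, and mp53 10, which lay nearer Ras, and where a call described for a gene is made or lost without these 4 arrays, that value is given beside it.

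In cells with activated Ras, more translation factor mRNAs rose on polysomes than fell. A gene is called higher or lower where its adjusted p in limma was under 0.05. In mp53/Ras cells against bleo/Neo cells, 26 of the 52 members rose, 7 fell and 19 did not pass, so 63.5% were called, beside 54.6% of all genes tested. Of all genes, 26.7% rose and 27.9% fell. The members' median difference was 0.21 on the log2 scale, beside 0.01 for all genes. In Ras cells against bleo/Neo cells 21 members rose and 5 fell (50%, beside 41.1% of all genes called), with a median of 0.10. Of all genes, 19.7% rose and 21.4% fell there. The SD of the members' median between single arrays of a group was 0.136. That SD is not the error of a difference between means of 10 arrays, and the medians were not tested. In mp53 cells against bleo/Neo cells 12 members rose and 5 fell (32.7%, beside 35.4%), with a median of 0.01, beside -0.02 for all genes, of which 16.5% rose and 18.9% fell. The share of members called in mp53 cells was close to that of all genes, and more members rose than fell.

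Against parental YAMC cells the order was the same. In mp53/Ras cells 26 members rose and 8 fell (65.4%, beside 57.8% of all genes called, 29.1% higher and 28.7% lower). In Ras cells 20 rose and 8 fell (53.8%, beside 42.7% of all genes, 21.5% higher and 21.2% lower). In mp53 cells 7 rose and 2 fell (17.3%, beside 22.9% of all genes, 11.1% higher and 11.8% lower). These comparisons share their bleo/Neo or YAMC arrays and their transformed arrays and are not independent of each other. Adding Ras to mutant p53 was accompanied by many changes, since 23 members were higher and 6 lower in mp53/Ras than in mp53 cells (55.8%, beside 47.1% of all genes, 23.3% higher and 23.8% lower). Between mp53/Ras and Ras cells, 4 members were higher and 2 lower (11.5%, beside 21.6% of all genes, 9.12% higher and 12.5% lower). Without the 4 arrays that lie nearer another group, the counts were 30 higher and 7 lower for mp53/Ras against bleo/Neo, 24 and 6 for Ras, and 15 and 6 for mp53. For mp53 against YAMC they were 14 higher and 5 lower without those arrays.

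**Figure D1:**
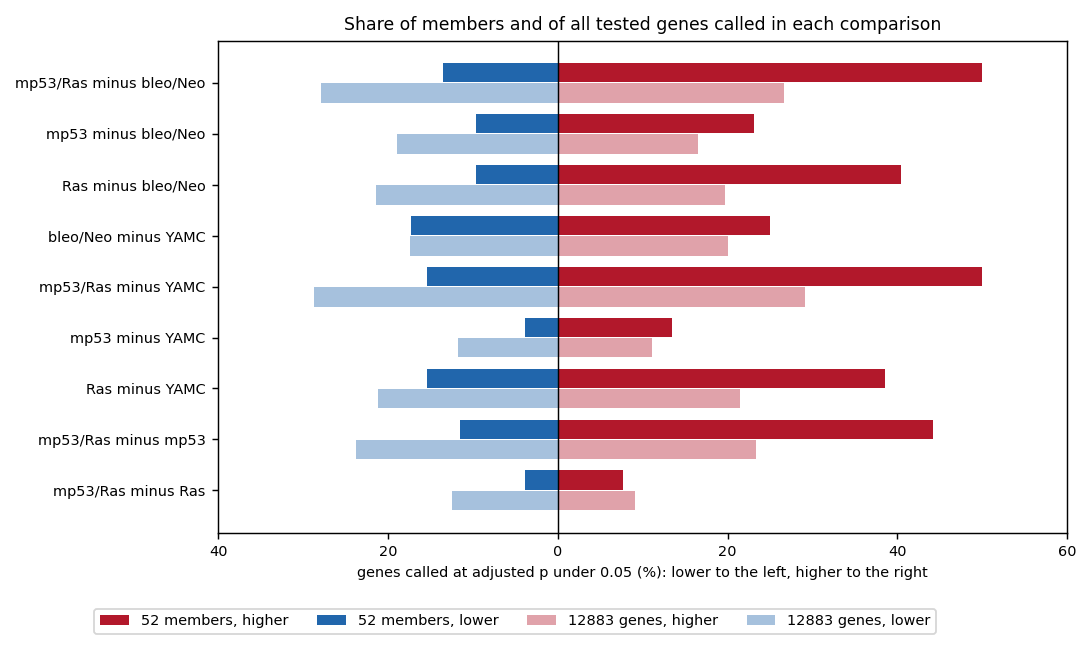
Share of the 52 tested translation factor genes (dark bars) and of all 12883 tested genes (pale bars) called in each of 9 comparisons at an adjusted p under 0.05, with genes called higher in the first population to the right and genes called lower to the left. The right-hand dark bar reaches 50% for mp53/Ras minus bleo/Neo, where the pale bar reaches 26.7%, and it is shorter than its pale partner only for mp53/Ras minus Ras.

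The mp53/Ras population had the highest mean of the 5 populations for 29 of the 52 members, while it was highest for 3849 of the 12883 genes tested. The differences were small for most members. The median spread between the 5 group means was 0.36 on the log2 scale, close to the 0.41 of all genes, and the median SD between arrays of a group was 0.19. In 3 members, Eif4g3, Eif4e3 and Eif4e, group means differed by more than 1 (5.77%, beside 10.8% of all genes). In mp53/Ras against bleo/Neo the 10 arrays of each group did not overlap for 9 members that rose (6.99% of all genes) and 2 that fell (10.4% of all genes).

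**Figure D2:**
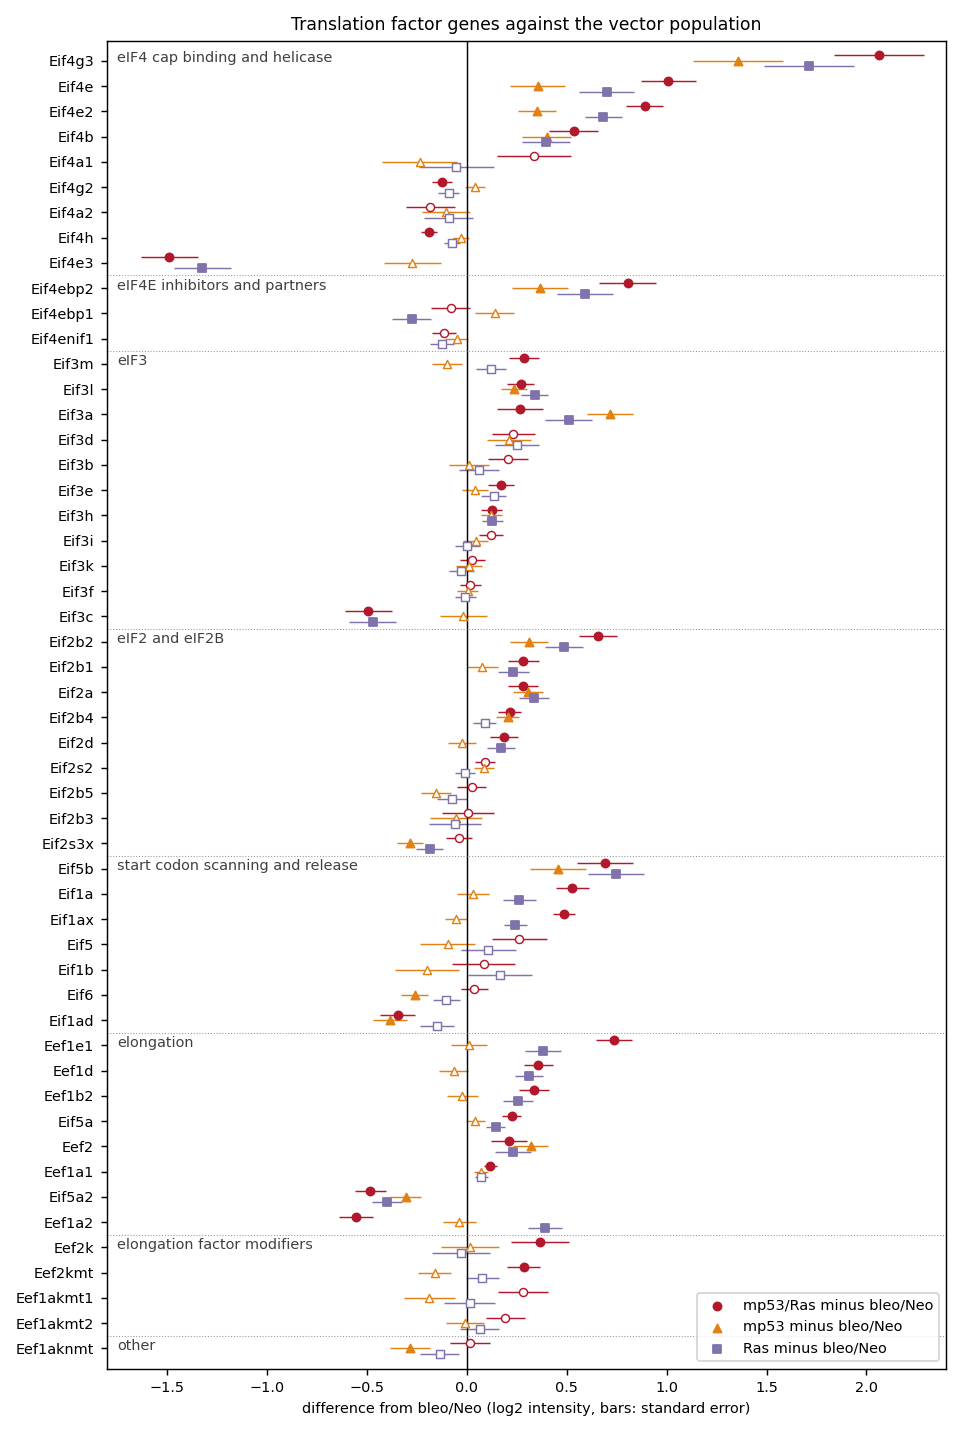
Difference in log2 intensity between mp53/Ras, mp53 and Ras cells and bleo/Neo cells for each of the 52 tested genes, grouped by role. Filled points passed an adjusted p under 0.05 and open points did not; Eif4g3 lies farthest to the right (2.06, 1.36 and 1.71 in mp53/Ras, mp53 and Ras cells) and Eif4e3 farthest to the left (-1.49 in mp53/Ras cells).

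The cap-binding proteins moved apart from each other. Of the 9 tested genes of the eIF4 group, 4 rose and 3 fell in mp53/Ras against bleo/Neo (44.4% and 33.3%, beside 26.7% and 27.9% of all genes). Eif4e, the rate-limiting cap-binding protein in many cells, and Eif4e2, the related 4EHP that binds caps without recruiting eIF4G, rose in both populations that carry RasV12, whereas Eif4e3, a divergent member of the family, fell.

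Eif4e had lowest, median and highest log2 intensities of 11.30, 11.53 and 11.74 on the mp53/Ras arrays, 10.39, 10.85 and 11.45 on the mp53 arrays, 10.09, 11.29 and 11.59 on the Ras arrays, 9.97, 10.63 and 10.81 on the bleo/Neo arrays, and 9.97, 10.78 and 11.14 on the YAMC arrays. All mp53/Ras arrays lay above all bleo/Neo and all YAMC arrays, and the mp53 arrays overlapped both. The difference from bleo/Neo was 1.01 ± 0.14 in mp53/Ras cells (SE, adjusted p = 1.44e-08 in limma), a 2.01-fold level. It was 0.70 ± 0.14 in Ras cells (adjusted p = 3.85e-05) and 0.35 ± 0.14 in mp53 cells (adjusted p = 0.0379). A single Ras array, Ras 10, lay at 10.1 while the next lowest was at 11.2, and without the 4 arrays nearer another group the Ras difference was 0.83. All 4 Eif4e probe sets that passed the filter rose in mp53/Ras cells, by 0.52 to 1.01. In bleo/Neo against YAMC cells the brightest probe set differed by -0.22 ± 0.14 and did not pass (adjusted p = 0.219). Another Eif4e probe set was called higher in that comparison. The difference between mp53/Ras and Ras cells, 0.31 ± 0.14, did not pass (adjusted p = 0.102).

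Eif4e2 ran from 10.83 through a median of 10.93 to 11.07 on the mp53/Ras arrays, with 10.05, 10.40 and 10.83 for mp53, 10.47, 10.74 and 11.03 for Ras, 9.61, 9.97 and 10.67 for bleo/Neo, and 9.69, 10.01 and 10.36 for YAMC. The mp53/Ras arrays again lay wholly above bleo/Neo and YAMC, and the Ras arrays wholly above YAMC. The differences from bleo/Neo were 0.89 ± 0.09 in mp53/Ras cells (adjusted p = 1.2e-11), 0.68 ± 0.09 in Ras cells (adjusted p = 2.95e-08) and 0.35 ± 0.09 in mp53 cells (adjusted p = 0.00227). Of its 4 probe sets, 3 rose in mp53/Ras cells, by 0.69 to 0.89, and the fourth differed by 0.15 and did not pass.

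Eif4e3 went the other way. Its lowest, median and highest values were 6.33, 6.73 and 6.97 on the mp53/Ras arrays, 7.22, 7.96 and 8.36 on mp53, 6.62, 6.77 and 7.64 on Ras, 7.36, 8.20 and 9.10 on bleo/Neo, and 8.12, 8.61 and 9.21 on YAMC. The mp53/Ras arrays lay wholly below mp53, bleo/Neo and YAMC, and the Ras arrays wholly below YAMC. Against bleo/Neo it fell by 1.49 ± 0.14 in mp53/Ras cells (0.357 of the bleo/Neo level, adjusted p = 9.16e-13) and by 1.32 ± 0.14 in Ras cells (adjusted p = 6.68e-11). The value in mp53 cells, -0.27 ± 0.14, did not pass (adjusted p = 0.138). Eif4e3 also fell in bleo/Neo against YAMC cells, by 0.44 ± 0.14 (adjusted p = 0.0128), and in mp53 against YAMC cells, by 0.71 ± 0.14 (adjusted p = 0.000206). A second probe set fell by 0.57 and 0.58 in mp53/Ras and Ras cells against bleo/Neo, so the direction was shared and the size was not. In mp53/Ras and Ras cells the gene lay near the table's median of 6.44, and whether background signal limits the size of these falls was not tested.

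**Figure D3:**
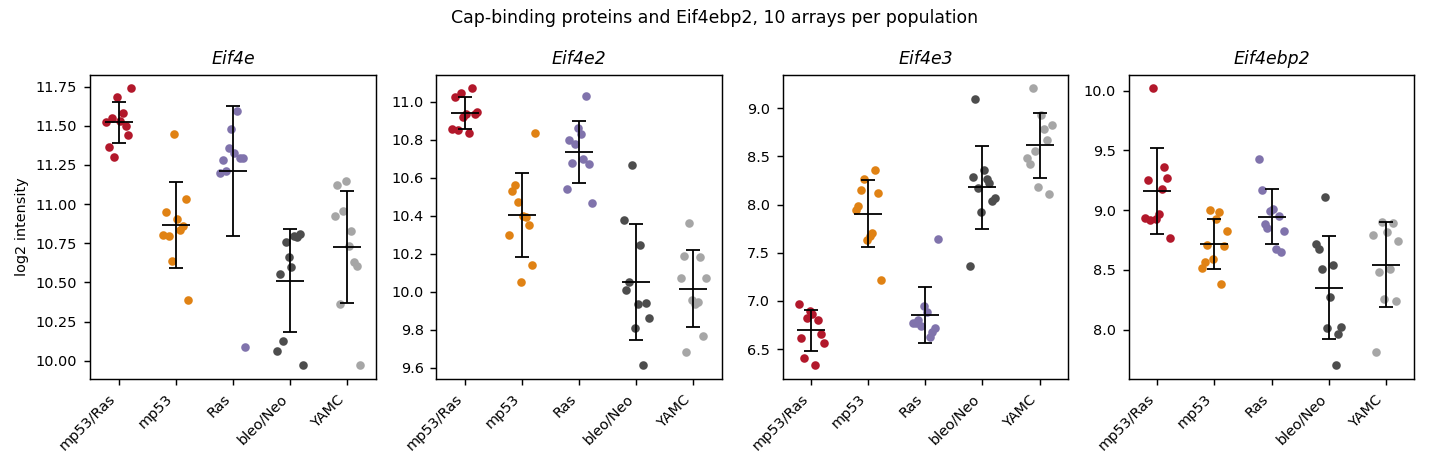
Log2 intensity on each array (points) with the group mean and SD (bars) for the cap-binding genes Eif4e, Eif4e2 and Eif4e3 and the eIF4E-binding protein gene Eif4ebp2, with populations ordered mp53/Ras, mp53, Ras, bleo/Neo and YAMC. For Eif4e and Eif4e2 every mp53/Ras point lies above every bleo/Neo point, and for Eif4e3 every mp53/Ras point lies below every bleo/Neo point.

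Of the inhibitors of eIF4E, Eif4ebp2 rose with Eif4e. It ran over 8.77, 9.07 and 10.02 on the mp53/Ras arrays, 8.38, 8.70 and 9.001 on mp53, 8.65, 8.92 and 9.43 on Ras, 7.70, 8.39 and 9.11 on bleo/Neo, and 7.82, 8.62 and 8.90 on YAMC. The groups overlapped, and the difference from bleo/Neo was 0.81 ± 0.14 in mp53/Ras cells (adjusted p = 3.85e-06), 0.59 ± 0.14 in Ras cells and 0.37 ± 0.14 in mp53 cells (adjusted p = 0.0384). In none of these comparisons were all 4 Eif4ebp2 probe sets above the filter called, and none was called lower. Eif4ebp1, the binding protein whose phosphorylation by mTOR is best known, fell by 0.27 ± 0.10 in Ras against bleo/Neo cells (adjusted p = 0.0212). In mp53/Ras cells its difference was -0.08 ± 0.10 and did not pass. Its arrays overlapped in all populations, with 12.03, 12.31 and 12.51 on mp53/Ras arrays, 12.08, 12.58 and 12.71 on mp53, 11.81, 12.00 and 12.62 on Ras, 11.90, 12.43 and 12.74 on bleo/Neo and 12.11, 12.41 and 12.78 on YAMC. Eif4enif1, whose product carries eIF4E into the nucleus, did not pass in any of the 3 transformed populations against bleo/Neo, although without the 4 arrays nearer another group it fell in Ras cells by 0.14 (adjusted p = 0.0328).

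Among the partners of eIF4E in the cap complex, Eif4b, which stimulates the helicase, had lowest, median and highest values of 11.06, 11.19 and 11.51 on mp53/Ras arrays, 10.74, 11.03 and 11.76 on mp53, 10.89, 11.02 and 11.36 on Ras, 10.30, 10.72 and 11.01 on bleo/Neo and 10.42, 10.72 and 11.77 on YAMC. All mp53/Ras arrays lay above all bleo/Neo arrays. Eif4b rose against bleo/Neo by 0.53, 0.40 and 0.40 in mp53/Ras, mp53 and Ras cells, and its 3 probe sets all rose in mp53/Ras cells. Eif4h, a relative of Eif4b, and Eif4g2, an eIF4G-like protein that lacks the cap-binding arm, fell in mp53/Ras cells by 0.19 and 0.12. The helicase gene Eif4a1 had log2 intensities of 12.11 to 12.75 on the mp53/Ras arrays (median 12.47), 10.44 to 12.91 on mp53 (12.01), 10.87 to 12.58 on Ras (12.14), 11.52 to 12.56 on bleo/Neo (12.12) and 11.03 to 12.16 on YAMC (11.76). Its mp53/Ras difference from bleo/Neo, 0.34 ± 0.19, did not pass (adjusted p = 0.125), but passed at the same size without the 4 arrays nearer another group (adjusted p = 0.0363). The difference from YAMC, 0.80 ± 0.19, passed (adjusted p = 0.000298). Its 3 probe sets gave -0.16, 0.34 and 0.66 against bleo/Neo, so the gene is uncertain. Eif4a2, the second helicase gene, had 11.05, 11.56 and 11.80 on mp53/Ras arrays, 11.29, 11.53 and 12.22 on mp53, 11.36, 11.63 and 12.06 on Ras, 11.04, 11.72 and 12.12 on bleo/Neo and 11.44, 11.96 and 12.26 on YAMC, and was not called in any transformed population against bleo/Neo.

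Eif4g3, one of the eIF4G scaffolds, showed the widest spread of all members and marked the vector population. Its lowest, median and highest values were 8.55, 9.03 and 9.74 on the mp53/Ras arrays, 7.46, 8.16 and 10.31 on mp53, 8.18, 8.62 and 9.14 on Ras, 6.07, 7.05 and 7.58 on bleo/Neo, and 8.17, 9.25 and 9.92 on YAMC. The bleo/Neo arrays lay wholly below mp53/Ras, Ras and YAMC. The differences from bleo/Neo were 2.06 ± 0.23 in mp53/Ras cells (4.17-fold, adjusted p = 4.23e-11), 1.36 ± 0.23 in mp53 cells and 1.71 ± 0.23 in Ras cells. Against YAMC cells, however, bleo/Neo was lower by 2.23 ± 0.23 (written bleo/Neo minus YAMC, -2.23, adjusted p = 1.4e-11), and mp53/Ras differed from YAMC by -0.17 ± 0.23, which did not pass (adjusted p = 0.532). A second probe set of the gene differed by -0.13 in mp53/Ras against bleo/Neo and by -0.14 in bleo/Neo against YAMC, and passed in neither.

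Eif4g3 was one of several members in which bleo/Neo cells departed from YAMC cells. In bleo/Neo against YAMC, 13 members rose and 9 fell (42.3%, beside 37.4% of all genes called, 20% higher and 17.4% lower), with a median of 0.01. The falls included Eif3a, the largest eIF3 subunit (-0.84 ± 0.12, adjusted p = 6e-08), Eif5b, the GTPase of subunit joining (-0.66 ± 0.14, adjusted p = 0.000157), Eef2, the translocase (-0.34 ± 0.09, adjusted p = 0.00197), Eif2b4 (-0.31 ± 0.06) and Eif2a (-0.30 ± 0.08). For Eif5b, Eef2 and Eif2a the 3 transformed populations each rose against bleo/Neo and none was called against YAMC. On its brightest probe set Eif3a rose against bleo/Neo in all 3, by 0.27, 0.72 and 0.51 in mp53/Ras, mp53 and Ras cells. It was below YAMC in mp53/Ras cells (-0.57 ± 0.12) and in Ras cells (-0.33 ± 0.12).

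The arrays of the brightest probe set show this for Eif5b, with lowest, median and highest log2 intensities of 9.12, 9.38 and 9.54 on mp53/Ras, 8.63, 9.10 and 9.98 on mp53, 8.98, 9.47 and 9.79 on Ras, 8.02, 8.74 and 9.13 on bleo/Neo, and 8.90, 9.29 and 10.00 on YAMC. Its 3 probe sets above the filter were not all called in bleo/Neo against YAMC or in mp53/Ras against bleo/Neo. None was called in the opposite direction. Eif3a ran over 11.03, 11.54 and 11.64 on mp53/Ras, 11.54, 11.95 and 12.15 on mp53, 11.10, 11.77 and 12.01 on Ras, 10.48, 11.32 and 11.59 on bleo/Neo, and 11.65, 11.99 and 12.44 on YAMC. Its bleo/Neo arrays lay wholly below YAMC. The rises of Eif3a against bleo/Neo are uncertain in mp53/Ras, mp53 and Ras cells alike. In mp53/Ras cells another probe set fell by 0.31 and one more rose by 0.57. The probe set of largest variance differed from bleo/Neo by -0.35, -0.08 and -0.23 in mp53/Ras, mp53 and Ras cells. Eef2 ran over 12.58, 12.69 and 12.79 on mp53/Ras, 12.43, 12.74 and 13.49 on mp53, 12.35, 12.76 and 12.87 on Ras, 12.26, 12.48 and 12.65 on bleo/Neo, and 12.52, 12.76 and 13.29 on YAMC.

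The 4 fibroblast and smooth muscle markers that passed the filter averaged lower in bleo/Neo than in YAMC cells, by unlike amounts. Acta2 averaged 13.13 in bleo/Neo cells, the lowest mean of the 5 populations, and 13.97 in YAMC cells. Col1a2, a collagen chain, averaged 12.08 to 13.06 on the log2 scale in the transformed populations, 8.69 in bleo/Neo cells and 13.30 in YAMC cells. Col1a1, its partner chain, averaged 12.49 in mp53/Ras, 13.23 in mp53, 12.40 in Ras, 12.49 in bleo/Neo and 13.29 in YAMC cells, so bleo/Neo was not the lowest. Desmin (Des) averaged 8.10 to 8.15 in the transformed populations, 8.20 in bleo/Neo and 8.36 in YAMC cells. The keratin Krt19 and the macrophage marker Cd68 had their highest means in bleo/Neo cells, 11.54 and 9.96. The summed linear intensity of the 5 fibroblast and smooth muscle markers was 19538 to 26727 on mp53/Ras arrays, 19797 to 44292 on mp53, 15489 to 31275 on Ras, 11560 to 22657 on bleo/Neo and 32010 to 45695 on YAMC. Their part in the values of Eif4g3, Eif3a, Eif5b and Eef2 was not tested. Rises in bleo/Neo against YAMC included Eif4a1 (0.46 ± 0.19), Eif1ad (0.45 ± 0.09), Eef1akmt1 (0.41 ± 0.13), Eif2b5 (0.40 ± 0.07) and Eef2kmt (0.37 ± 0.08).

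**Figure D4:**
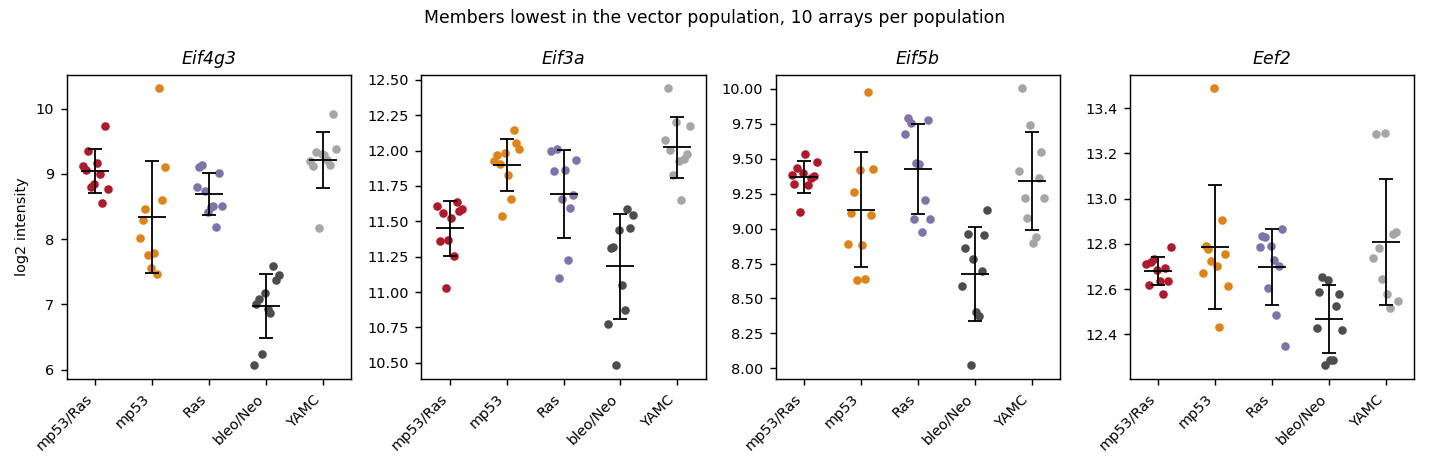
Log2 intensity on each array (points) with the group mean and SD (bars) for 4 genes chosen for the figure after their values were seen, Eif4g3, Eif3a, Eif5b and Eef2, with populations ordered mp53/Ras, mp53, Ras, bleo/Neo and YAMC. The bleo/Neo mean is the lowest of the 5 in every panel, and for Eif4g3 and Eif3a every bleo/Neo point lies below every YAMC point.

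The eIF3 scaffold genes did not all move one way. Of its 11 tested subunit genes, 5 rose, 1 fell and 5 did not pass in mp53/Ras against bleo/Neo, with differences from -0.49 to 0.29. The share called, 54.5%, was that of all genes (54.6%). Eif3c, a core subunit, was the gene that fell. It ran over 11.87, 12.18 and 12.35 on mp53/Ras arrays, 12.32, 12.56 and 13.28 on mp53, 11.81, 12.16 and 12.64 on Ras, 12.07, 12.65 and 13.12 on bleo/Neo, and 12.44, 12.70 and 13.49 on YAMC. It fell by 0.49 ± 0.12 in mp53/Ras cells (adjusted p = 0.000347) and by 0.47 ± 0.12 in Ras cells (adjusted p = 0.000952), while mp53 cells differed by -0.02. Its 4 probe sets all fell in mp53/Ras cells, by 0.30 to 0.49. The risers were Eif3m (0.29), Eif3l (0.27), Eif3a (0.27), Eif3e (0.17) and Eif3h (0.13). Eif3m, on the rim of the complex, was also higher in mp53/Ras than in YAMC cells by 0.54 ± 0.08, with no overlap of the arrays. Eif3d, a subunit that can itself contact the cap, had 11.51, 11.62 and 11.75 on mp53/Ras arrays, 11.30, 11.57 and 12.07 on mp53, 11.34, 11.63 and 11.99 on Ras, 11.09, 11.43 and 11.70 on bleo/Neo and 11.27, 11.59 and 12.53 on YAMC. It differed from bleo/Neo by 0.23, 0.21 and 0.25 in mp53/Ras, mp53 and Ras cells and passed in none. Without the 4 arrays nearer another group, Eif3d passed in mp53/Ras cells (0.23, adjusted p = 0.027) and in Ras cells (0.27, adjusted p = 0.0163). In bleo/Neo against YAMC cells its brightest probe set differed by -0.26 ± 0.11 and did not pass (adjusted p = 0.0524). Another Eif3d probe set was called higher in that comparison.

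In the eIF2 group, 5 of 9 genes rose in mp53/Ras against bleo/Neo and none fell (55.6% called, beside 54.6% of all genes, of which 26.7% rose). The exchange factor subunit Eif2b2 rose by 0.66 ± 0.09 in mp53/Ras cells (adjusted p = 4.88e-08), by 0.31 in mp53 and by 0.49 in Ras cells, and its 3 probe sets all rose in mp53/Ras cells. Eif2b1 and Eif2a rose by 0.28 each, Eif2b4 by 0.22 and Eif2d, which can deliver initiator tRNA without GTP, by 0.19. Compared with YAMC, mp53/Ras cells were also higher in Eif2b2 (0.43) and Eif2b1 (0.24). Eif2a (-0.02), Eif2b4 (-0.10) and Eif2d (0.06) did not pass there. Eif2b4 was lower in Ras than in YAMC cells (-0.22 ± 0.06, adjusted p = 0.00101). Eif2b5, the catalytic subunit of eIF2B, ran over 9.59, 9.77 and 9.88 on mp53/Ras arrays, 9.17, 9.56 and 10.12 on mp53, 9.43, 9.66 and 9.83 on Ras, 9.60, 9.73 and 9.92 on bleo/Neo, and 8.99, 9.32 and 9.79 on YAMC. It did not pass against bleo/Neo in any transformed population and was higher than YAMC in all of them, by 0.42, 0.24 and 0.32 in mp53/Ras, mp53 and Ras cells. Eif2s3x, the GTP-binding subunit of eIF2, had 11.62, 11.71 and 12.02 on mp53/Ras arrays, 11.32, 11.55 and 11.67 on mp53, 11.27, 11.68 and 11.77 on Ras, 11.45, 11.81 and 12.18 on bleo/Neo and 11.36, 11.45 and 11.61 on YAMC, with bleo/Neo highest by its median. It fell by 0.28 in mp53 cells and by 0.19 in Ras cells, and the Ras value did not pass without the 4 arrays nearer another group (-0.15, adjusted p = 0.0515). Its probe sets went both ways in mp53/Ras cells (0.46 and -0.16, both called).

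Of the 7 genes of start codon scanning and ribosome joining or release, 3 rose and 1 fell in mp53/Ras against bleo/Neo (57.1% called, beside 54.6% of all genes). Eif1a and Eif1ax encode near-identical forms of eIF1A, so their probe sets may share signal. Eif1ax spanned 12.11 to 12.34 on mp53/Ras arrays, 11.49 to 11.82 on mp53, 11.87 to 12.22 on Ras, 11.45 to 12.02 on bleo/Neo and 11.17 to 11.60 on YAMC. The mp53/Ras arrays lay wholly above mp53, bleo/Neo and YAMC, and the Ras arrays wholly above YAMC. Eif1ax rose by 0.49 ± 0.06 in mp53/Ras against bleo/Neo cells (adjusted p = 1.29e-10) and by 0.24 ± 0.06 in Ras cells, and was 0.24 ± 0.06 higher in mp53/Ras than in Ras cells (adjusted p = 0.00082). Eif1a rose by 0.53 ± 0.08 and 0.26 ± 0.08 in mp53/Ras and Ras cells against bleo/Neo. Eif1ad, a protein with an eIF1A domain, had 9.50, 9.76 and 10.06 on mp53/Ras arrays, 9.34, 9.83 and 10.07 on mp53, 9.70, 9.92 and 10.28 on Ras, 9.87, 10.13 and 10.46 on bleo/Neo and 9.26, 9.71 and 9.83 on YAMC, and its bleo/Neo arrays lay wholly above YAMC. In mp53/Ras against bleo/Neo it fell by 0.34 ± 0.09 on the brightest probe set and rose by 0.42 on the other. Eif6, which keeps large and small subunits apart, had 11.74, 11.84 and 12.10 on mp53/Ras arrays, 11.29, 11.56 and 11.94 on mp53, 11.31, 11.75 and 11.93 on Ras, 11.61, 11.84 and 12.03 on bleo/Neo and 11.45, 11.72 and 11.91 on YAMC. It fell in mp53 against bleo/Neo cells by 0.26 ± 0.07 (adjusted p = 0.002) and differed by 0.04 in mp53/Ras cells, without passing. The Eif6 probe set of larger variance differed by 0.14 in mp53 against bleo/Neo cells, the opposite sign. Eif5, the GTPase-activating protein for eIF2, had 11.66, 12.27 and 12.62 on mp53/Ras arrays, 11.06, 12.01 and 12.25 on mp53, 11.73, 12.17 and 12.47 on Ras, 11.34, 12.03 and 12.35 on bleo/Neo and 11.45, 12.26 and 12.52 on YAMC, and all groups overlapped. It did not pass on its brightest probe set (0.26 ± 0.14 in mp53/Ras cells), and another probe set rose by 0.49.

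All 8 tested elongation genes were called in mp53/Ras against bleo/Neo, 6 higher and 2 lower (beside 54.6% of all genes called). In Ras cells 6 rose and 1 fell (87.5%, beside 41.1%), and in mp53 cells 1 rose and 1 fell (25%, beside 35.4%). With YAMC as the reference, 4 were higher, 2 lower and 2 not called in mp53/Ras cells (75%, beside 57.8% of all genes called). The subunits of the eEF1 exchange complex Eef1d and Eef1b2 rose in mp53/Ras cells by 0.36 ± 0.07 and 0.34 ± 0.08 and in Ras cells by 0.31 and 0.26, and passed in neither case in mp53 cells.

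Eef1e1, also called AIMP3 or p18, is a scaffold of the multi-tRNA synthetase complex that is known to activate p53 through ATM after DNA damage. Its lowest, median and highest values were 11.46, 11.56 and 11.69 on mp53/Ras arrays, 10.43, 10.91 and 11.06 on mp53, 10.78, 11.28 and 11.45 on Ras, 10.32, 10.84 and 11.19 on bleo/Neo, and 10.32, 10.78 and 11.03 on YAMC. Every mp53/Ras array lay above every array of the other 4 populations. The difference was 0.74 ± 0.09 from bleo/Neo (1.67-fold, adjusted p = 9.49e-10), 0.73 ± 0.09 from mp53 (adjusted p = 3.41e-09) and 0.36 ± 0.09 from Ras (adjusted p = 0.00273). Ras cells were 0.38 ± 0.09 above bleo/Neo (adjusted p = 0.000508), and mp53 cells differed from bleo/Neo by 0.01 ± 0.09 and did not pass. The gene has 1 probe set in the table.

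Eef1a2, the isoform of eEF1A otherwise typical of neurons and muscle, moved in opposite directions in Ras and mp53/Ras cells. It ran over 7.20, 7.33 and 7.44 on mp53/Ras arrays, 7.62, 7.89 and 8.02 on mp53, 7.87, 8.31 and 8.48 on Ras, 7.54, 7.81 and 8.34 on bleo/Neo, and 7.29, 7.47 and 8.03 on YAMC. All mp53/Ras arrays lay below all mp53, Ras and bleo/Neo arrays and overlapped YAMC. Against bleo/Neo it fell by 0.56 ± 0.08 in mp53/Ras cells (adjusted p = 1.74e-07) and rose by 0.39 ± 0.08 in Ras cells (adjusted p = 0.000153), with -0.04 ± 0.08 in mp53 cells. Between mp53/Ras and Ras cells the difference was -0.95 ± 0.08 (adjusted p = 1.74e-12). Like Eef1e1, Eef1a2 is measured by 1 probe set, so no other probe set could be compared.

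The non-additive term asks whether the mp53/Ras level departs from the sum of the separate mp53 and Ras differences. For Eef1a2 it was -0.91 ± 0.12 with bleo/Neo as the baseline (adjusted p = 3.72e-08) and -1.26 ± 0.12 with YAMC as the baseline (adjusted p = 4.03e-11). In the fit over all 50 arrays, Eef1a2 was the only member called with the same sign on both baselines. Without the 4 arrays nearer another group its terms were -0.94 and -1.32, and a pair of eIF3 genes was also called negative on both, Eif3h (-0.18 and -0.36) and Eif3l (-0.33 and -0.26). Its fall in mp53/Ras against YAMC, 0.21 ± 0.08 (adjusted p = 0.0329), was 0.17 and no longer passed without those arrays (adjusted p = 0.0682). With bleo/Neo as the baseline 6 members had a positive and 6 a negative term (23.1%, beside 23.9% of all genes called, 11.8% positive and 12% negative). With YAMC as the baseline there were 2 and 2 (7.69%, beside 12.4% of all genes, 5.42% positive and 7.02% negative). Eif4g3 was called on both baselines with opposite signs, -1.01 ± 0.32 and 1.22 ± 0.32.

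**Figure D5:**
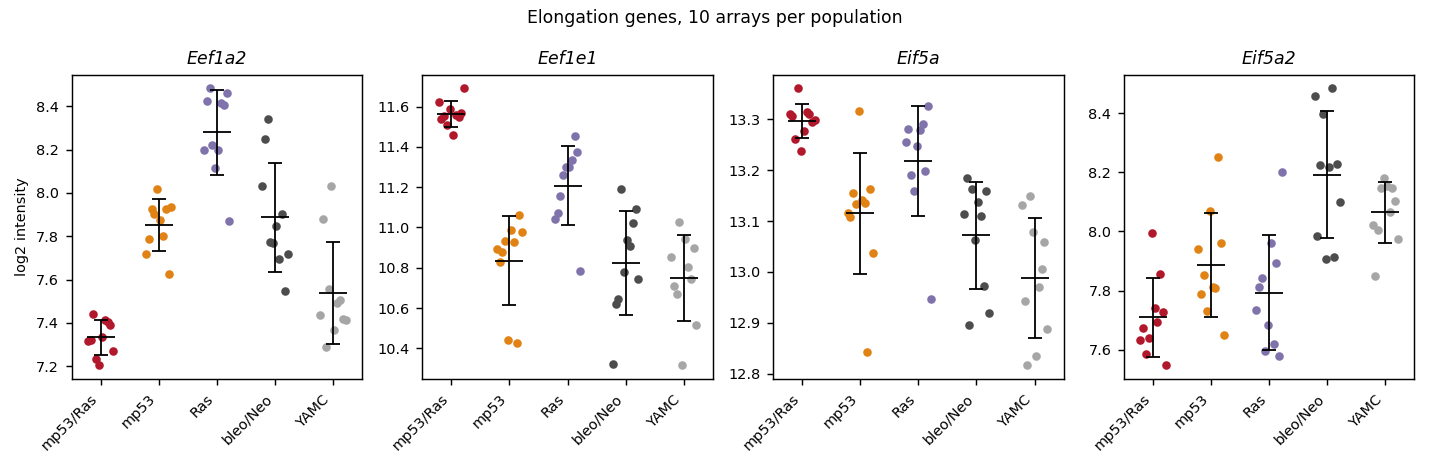
Log2 intensity on each array (points) with the group mean and SD (bars) for Eef1a2, Eef1e1, Eif5a and Eif5a2, with populations ordered mp53/Ras, mp53, Ras, bleo/Neo and YAMC. Eef1a2 is highest in Ras cells and lowest in mp53/Ras cells, and every mp53/Ras point of Eef1e1 lies above every other point in its panel.

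The pair of eIF5A genes moved in opposite directions. Eif5a, the widely expressed form, spanned 13.24 to 13.36 on mp53/Ras arrays, 12.84 to 13.32 on mp53, 12.95 to 13.33 on Ras, 12.90 to 13.19 on bleo/Neo and 12.82 to 13.15 on YAMC. It rose by 0.23 ± 0.05 in mp53/Ras cells (adjusted p = 6.33e-05) and by 0.15 ± 0.05 in Ras cells (adjusted p = 0.0108) against bleo/Neo, with no overlap in mp53/Ras. Eif5a2, known for amplification in human tumours, spanned 7.55 to 7.99 on mp53/Ras arrays, 7.65 to 8.25 on mp53, 7.58 to 8.20 on Ras, 7.91 to 8.48 on bleo/Neo and 7.85 to 8.18 on YAMC. It fell against bleo/Neo by 0.48 ± 0.08, 0.31 ± 0.08 and 0.40 ± 0.08 in mp53/Ras, mp53 and Ras cells. Both Eif5a2 probe sets fell in mp53/Ras cells. In mp53 against bleo/Neo cells the probe set of larger variance differed by 0.11, the opposite sign, so the fall in mp53 cells is uncertain. Of the enzymes that make hypusine on eIF5A, Dohh rose by 0.43, 0.24 and 0.45 in mp53/Ras, mp53 and Ras cells against bleo/Neo. Dohh was lower in bleo/Neo than in YAMC cells (-0.32 ± 0.07, adjusted p = 0.000188), and the transformed populations differed from YAMC by 0.11, -0.08 and 0.13, none of which passed. Dhps rose in bleo/Neo against YAMC by 0.67 ± 0.13.

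Eef1a1, the general eEF1A, sat at 13.93 to 14.10 on mp53/Ras arrays, 13.81 to 13.99 on mp53, 13.87 to 13.99 on Ras, 13.72 to 13.99 on bleo/Neo and 13.85 to 14.10 on YAMC. The highest value in the table is 14.26, close above these values. Its difference of 0.12 ± 0.03 in mp53/Ras against bleo/Neo passed (adjusted p = 0.00235), and whether the top of the scale limits it was not tested. The bleo/Neo cells were lower than YAMC cells by a like amount (-0.12 ± 0.03, adjusted p = 0.00264). From YAMC, mp53/Ras cells differed by -0.005 ± 0.03 and did not pass (adjusted p = 0.899). The genes that modify elongation factors were higher in mp53/Ras than in YAMC cells in 4 of 4 cases (beside 29.1% of all genes), namely Eef1akmt1 (0.69), Eef2kmt (0.66), Eef2k (0.64) and Eef1akmt2 (0.26). When set against bleo/Neo, 2 of the 4 were called in mp53/Ras cells, both higher (50%, beside 54.6% of all genes called). None was called in mp53 or Ras cells. The bleo/Neo cells were themselves higher than YAMC cells for 2 of the 4 (50%, beside 37.4% of all genes called). Against bleo/Neo, Eef2k, the kinase that inhibits eEF2, rose by 0.37 ± 0.14 in mp53/Ras cells on its brightest probe set (adjusted p = 0.027) and fell by 0.49 on another. It spanned 7.90 to 8.60 on mp53/Ras arrays, 7.45 to 8.45 on mp53, 7.71 to 8.47 on Ras, 7.47 to 8.42 on bleo/Neo and 7.18 to 8.84 on YAMC. Eef1akmt1, a lysine methyltransferase of eEF1A, had 9.63, 9.93 and 10.23 on mp53/Ras arrays, 8.56, 9.52 and 9.78 on mp53, 9.47, 9.67 and 9.91 on Ras, 9.05, 9.64 and 10.22 on bleo/Neo and 8.60, 9.31 and 9.84 on YAMC. Its brightest probe set did not pass in mp53/Ras against bleo/Neo, but did without the 4 arrays nearer another group (0.28, adjusted p = 0.0459). Another rose by 0.43 and another fell by 0.66. Eef2kmt, which methylates eEF2, had 6.82, 7.08 and 7.28 on mp53/Ras arrays, 6.20, 6.63 and 7.16 on mp53, 6.72, 6.85 and 7.15 on Ras, 6.64, 6.74 and 7.07 on bleo/Neo and 6.09, 6.36 and 6.78 on YAMC, and its mp53/Ras arrays lay wholly above YAMC. The methyltransferase gene Eef1aknmt had 7.50, 7.77 and 8.03 on mp53/Ras arrays, 7.19, 7.51 and 7.72 on mp53, 7.20, 7.63 and 7.94 on Ras, 7.35, 7.79 and 8.23 on bleo/Neo and 7.13, 7.34 and 7.88 on YAMC. It fell in mp53 against bleo/Neo cells by 0.28 ± 0.10 and had a positive non-additive term of 0.43 on that baseline.

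Probe sets of one gene often disagreed in size and sometimes in sign. In mp53/Ras against bleo/Neo, 33 members had at least 2 probe sets above the filter. All probe sets were called one way in 9 of them, namely Eif1a, Eif1ax, Eif2b2, Eif3c, Eif4b, Eif4e, Eif4e3, Eif5a and Eif5a2. In 13 some were called, all one way, in 6 none was, and in 5 probe sets were called both ways, namely Eef1akmt1, Eef2k, Eif1ad, Eif2s3x and Eif3a. By their suffix, the probe sets used for Eif2s3x, Eif3c, Eif4ebp1 and Eif4h may hybridise with other genes, and those for Eef2k, Eif3m, Eif4g2 and Eif5a match several transcripts.

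Genes for the proteins of the ribosome itself were set beside the factors. Of 47 tested cytosolic ribosomal protein genes, 29 rose and 1 fell in mp53/Ras against bleo/Neo (63.8% called, beside 54.6% of all genes), with a median of 0.14. In Ras cells 19 rose and 1 fell (42.6%, beside 41.1%), with a median of 0.11. The translation factors held more falls, 7 of 52, and had the larger median, 0.21, and the difference between the lists was not tested. Of 30 regulators of translation outside the factor genes, 8 rose and 8 fell in mp53/Ras against bleo/Neo (53.3%, beside the 54.6% of all genes). Deptor, an inhibitor within mTOR complexes, rose by 0.84 ± 0.13, 0.74 ± 0.13 and 0.69 ± 0.13 in mp53/Ras, mp53 and Ras cells. Mcts1 and Denr, which form a complex for reinitiation and ribosome recycling, rose in mp53/Ras cells by 0.71 ± 0.11 and 0.55 ± 0.09. Falls in mp53/Ras cells included Eefsec, the selenocysteine elongation factor (-0.67 ± 0.10), Ppp1r15a, which directs eIF2 dephosphorylation (-0.64 ± 0.28), Eif2ak3, the eIF2 kinase PERK (-0.52 ± 0.11), Tsc1, a brake on mTOR (-0.49 ± 0.10), and Mknk2, a kinase of eIF4E (-0.33 ± 0.08).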

How the data were processed

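Polysomal RNA of 50 samples, 10 for each of 5 populations, was measured on Affymetrix mouse arrays, 5 µg of RNA per array. The authors deposited a linear-scale intensity for every probe set on every array, and RMA is named per the submitters' processing notes, without a version or a statement of how its log scale was undone. Array medians ran from 86.4 to 86.7 on that scale, and no detection call, scan date or batch is in the files used here.

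Intensities were put on the log2 scale without an offset, from the deposited values. Probe sets with 1 gene symbol in the platform annotation (34945) were kept, 932 with several symbols and 9160 with none were left out, and 34741 of those kept matched the RefSeq gene table. Each gene took its probe set with the highest mean. Genes above the table's median (6.44) on at least 10 of 50 arrays were tested; 49 of the 52 tested members were above it on all 50, and Eif4e3 and Eif4g3 were on 48 and Eef2kmt on 42. Since the filter ignores groups, members lying low in 1 group stayed in.

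All arrays and 11 contrasts were covered by 1 fit in limma 3.58.1 (R 4.3.3), with a mean for each group, an intensity trend and p-values adjusted by Benjamini-Hochberg over all tested genes of a contrast. Probe sets other than the brightest were fitted in the same way over all probe sets above the filter. The script was tested on simulated data. Array intensities carry no read depth, so precision rests on how many arrays a group has. Alternatives were the filter, the offset, the probe set, the trend, the groups in the fit, a replicate block, array weights and the 4 arrays nearer another group.

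Members and lists were chosen with earlier results of these data known. Values by array group are given for the 5 largest called rises and falls of each of 4 comparisons, members non-additive on both baselines, members with another probe set that was called with the opposite sign to the brightest (itself called or not) in 1 of these comparisons, and Eif4e, Eif4ebp1, Eif4a1, Eif4a2, Eif2b5, Eif5a, Eif5a2, Eif6, Eef1a1, Eef1a2, Eef2 and Eef2k. Eif2s1 and Eif4g1, also on that list, were not analysed here. Promoter sequences came from RefSeq (GRCm38.p6).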

Additional observations from a re-analysis of the deposited data

Results flagged for a closer look

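In 15 of 140 groups of 10 arrays (28 named genes, 5 populations), 1 array stood apart from the other 9 by more than Dixon's limit allows (10.7%). Chance alone does so in about 1 of 20 groups. Ras 10 did so for 5 genes, with 10.9 for Eif4a1, 10.1 for Eif4e, 12.9 for Eif5a and 11.3 for Eif6, each the lowest Ras value, and 7.64 for Eif4e3, the highest. mp53 5 did so for 3 genes, with 8.56 for Eef1akmt1, 13.5 for Eef2 and 10.1 for Eif2b5. The other arrays were mp53/Ras 3 (14.1) and mp53 10 (13.8) for Eef1a1, YAMC 5 for Eif1ad (9.26), mp53 8 for Eif3c (13.3), YAMC 2 for Eif3d (12.5), mp53/Ras 4 for Eif4ebp2 (10) and YAMC 4 for Eif4g3 (8.17).

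The non-additive term of the limma fit was called for 12 members with bleo/Neo as the baseline (23.1%, beside 23.9% of all genes). The negative terms were -0.91 for Eef1a2, -0.96 for Eif3a, -1.01 for Eif4g3, -0.37 for Eif2a (adjusted p = 0.00918), -0.34 for Eef2 (adjusted p = 0.0443) and -0.31 for Eif3l (adjusted p = 0.0125). Of these genes, Eif4g3, Eif3a, Eef2 and Eif2a were lower in bleo/Neo than in YAMC cells (-2.23, -0.84, -0.34 and -0.30). Eef1a2 was higher there (0.35), and Eif3l was not called. The positive terms were 0.43 for Eef1aknmt, 0.43 for Eif2s3x (adjusted p = 0.000427), 0.40 for Eif6 (adjusted p = 0.0014), 0.37 for Eef2kmt (adjusted p = 0.0169), 0.35 for Eef1e1 (adjusted p = 0.0407) and 0.30 for Eif1ax (adjusted p = 0.00364). With YAMC as the baseline, 4 members were called (7.69%, beside 12.4% of all genes). Their terms were -1.26 for Eef1a2, -0.26 for Eif3h (adjusted p = 0.0121), 0.23 for Eif2b4 (adjusted p = 0.0407) and 1.22 for Eif4g3. Of the terms called on the bleo/Neo baseline, only that of Eef1a2 was called here with the same sign. Without the 4 arrays nearer another group, the Eef1e1 term was 0.27 and did not pass (adjusted p = 0.107). In the same fit 4 members gained a call on the bleo/Neo baseline and 4 on the YAMC baseline.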

How the results depend on the processing

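The fits gave 484 alternative values for the counts and medians, of which 441 stayed within 1.5 times the reported count or within the spread of the median (SD 0.136), and 43 moved. The 0.136 is wider than several reported medians, such as 0.10 for Ras and 0.01 for mp53 against bleo/Neo. A median of that size could change sign without counting as moved, so its sign was not tested here. For single named genes, 1137 of 1228 alternative values kept their sign and their side of the threshold, 48 passed where the reported value had not, 31 no longer passed and 12 changed sign. Of the 12, 11 came from taking the probe set with the largest variance and 1 from averaging probe sets. The main limits are that probe sets of a gene differ, that each population was derived once, that no batch is known, and that polysomal RNA is one fraction of the mRNA.

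With the probe set of largest variance (47 members tested), mp53/Ras against bleo/Neo became 0.42 for Eif1ad, 0.46 for Eif2s3x and -0.35 for Eif3a. For mp53 against bleo/Neo the values were 0.10 for Eif1ad, -0.0801 for Eif3a, 0.36 for Eif5, 0.11 for Eif5a2 and 0.14 for Eif6. Ras against bleo/Neo became 0.25 for Eif1ad and -0.23 for Eif3a, and bleo/Neo against YAMC -0.10 for Eif1ad. Counts moved there to 4 lower in mp53/Ras against bleo/Neo, 7 higher and 2 lower in mp53 against bleo/Neo, 7 higher in bleo/Neo against YAMC, 4 lower in mp53/Ras and 5 lower in Ras against YAMC, 8 higher and 1 lower in mp53/Ras against Ras, and 2 and 1 negative non-additive terms on the bleo/Neo and YAMC baselines. With the mean of all probe sets Eif1ad became 0.0383 in mp53/Ras against bleo/Neo, and counts moved to 4 lower in that comparison, 2 lower in mp53 against bleo/Neo, 4 lower in mp53 against YAMC, 7 higher in mp53/Ras against Ras and 4 positive terms on the YAMC baseline. The members differ in which probe set represents them, and no other cause was tested.

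Without mp53 10 and Ras 10, 4 members were lower in mp53 against YAMC and 1 in mp53/Ras against Ras. Without YAMC 2 and mp53 8 as well, mp53 against YAMC had 14 higher and 5 lower and the YAMC baseline 5 negative terms. With no filter, 4 positive terms were called on the YAMC baseline, and the calls over 18193 genes were 4711 in mp53 against YAMC, 4576 in mp53/Ras against Ras, and 5038 and 3353 for the non-additive terms on the bleo/Neo and YAMC baselines. With only the groups of a comparison in the fit, 3 members were lower in Ras against bleo/Neo, 4 higher in mp53 against YAMC and 9 higher in mp53/Ras against Ras. With array weights the counts were 17 higher and 6 lower in mp53 against YAMC (5971 genes in all), 10 lower in mp53/Ras against mp53, 13 higher and 4 lower in mp53/Ras against Ras (4973), and 13 positive and 11 negative terms on the bleo/Neo baseline (5137) and 6 and 7 on the YAMC baseline (4151). The cause was not tested.

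Replicate numbers recur in every population. Arrays with the same number correlated with r from -0.515 to 0.747 (median 0.186) over 100 pairs, 67 of them over 0.1. For other numbers the median r was -0.0235. Of the 50 arrays, 23 correlated best with their own number, which is a hint from the data, and the numbers were not taken as pairs. With the number as a replicate block, mp53/Ras against Ras had 7 higher and 4 lower members, and Eif4e rose by the same 1.01 in mp53/Ras against bleo/Neo.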

Other observations

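The mp53/Ras arrays were more alike than those of the other populations. The median SD between arrays over the 52 members was 0.12 for mp53/Ras, 0.21 for mp53, 0.173 for Ras, 0.2 for bleo/Neo and 0.206 for YAMC, and over all genes 0.152, 0.2, 0.183, 0.21 and 0.224 in the same order. For 27 of the 52 members the smallest SD was that of mp53/Ras. The difference in spread was not tested.

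Among the regulators of translation, 2 were non-additive with the same sign on both baselines. Mcts1 had terms of 0.41 ± 0.16 and 0.53 ± 0.16 with bleo/Neo and YAMC as baseline, and was 0.86 ± 0.11 higher in mp53/Ras than in mp53 cells (adjusted p = 9.41e-09). Mknk2 had terms of -0.41 ± 0.12 and -0.51 ± 0.12, and was lower in mp53/Ras cells than in each other population, by 0.31 ± 0.08 against Ras (written mp53/Ras minus Ras, -0.31, adjusted p = 0.00359). Tsc2, the partner of Tsc1, rose in mp53 and Ras against bleo/Neo cells by 0.35 ± 0.11 and 0.28 ± 0.11 and had a negative term of -0.63 ± 0.16 on that baseline (adjusted p = 0.00252). It was, however, 0.43 ± 0.11 lower in bleo/Neo than in YAMC cells (written bleo/Neo minus YAMC, -0.43, adjusted p = 0.00191). Tsc2 in mp53 and Ras cells did not pass against YAMC (adjusted p = 0.662 and 0.278), nor did its term on the YAMC baseline (-0.20 ± 0.16, adjusted p = 0.479).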
